A study of Mus musculus with 18 samples.

Results

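The 9 genes described here encode proteins that restrain the step from G1 into S phase of the cell cycle. They are the CDK inhibitors Cdkn1b, Cdkn1c, Cdkn2a, Cdkn2b, Cdkn2c and Cdkn2d and the pocket proteins of the retinoblastoma family Rb1, Rbl1 and Rbl2. They were found by annotation, as every probe whose transcript accession belongs to one of these symbols in RefSeq, which gave 12 probes of 9 genes among 37246 probes with 34289 distinct names. Cdkn1c, Cdkn2a and Rbl1 had 2 probes each. RNA came from 6 groups of 3 arrays. ES were unirradiated, early passage, primary mouse embryonic stem cells, grown on gelatin with leukemia inhibitory factor (LIF) and no feeder cells. ED were isogenic unirradiated cells made from them by culture without LIF, described as continued until stem cell markers were lost. ESRE and EDRE were ES and ED cells collected 15 min after 10 Gy of ionizing radiation (IR), and ESRL and EDRL were collected 4 h after the same dose. Every ED group therefore descends from the same stem cells, and the labels give no strain and no count of separate cultures, so that p-values measure only the spread between these samples, which may be technical.

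Entry into S phase is driven by cyclin D with CDK4 or CDK6 and by cyclin E with CDK2. These kinases phosphorylate the pocket proteins, which otherwise bind E2F factors and hold back the genes of DNA replication. The Ink4 proteins (p16 and p15, p18 and p19) bind CDK4 and CDK6, the Cip/Kip proteins p27 and p57 bind cyclin and CDK complexes more broadly, and Arf, read from the Cdkn2a gene in another frame, binds Mdm2 and thereby spares p53. Mouse ES cells are known for a short G1 phase, and the same inhibitors are textbook markers of cells that slow or leave the cycle.

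Levels are log2 signals with the 75th percentile of every array set to 0, and 1 unit is a doubling. Levels of different probes cannot be set against each other on such arrays. The 75th percentile lay between 1952 and 4268 on 16 arrays and was 875 and 1155 on EDRE replicates 2 and 3, which also had the most spots marked as outliers (24.4% and 23.8%) and the fewest probes well above background (49.5% and 55.5%). Arrays of a group and of its control never shared a scan time, and the main fit does not account for this. Scan time was fitted as a random block as an alternative only, with a correlation of 0.81 within it. Scaling to the median in place of the 75th percentile moved the median change of all probes between ED and ES from -0.19 to 0.46, and changes are to be read relative to it. The labelled cell types were checked with marker genes. In ED, 7 of the 7 stem cell markers tested were lower (Pou5f1, Nanog, Sox2, Fut4, Esrrb, Tdgf1 and Dppa5a). The summed linear level of the 8 markers listed was 508 to 518 on the ES arrays and 5.01 to 5.80 on the ED arrays. On all ED arrays 6 of the 8 were still well above background. Among these Sox2 had a mean of 2.32 in ED against 4.68 in ES, with outlier spots kept, so that it was lower but not lost. Of 7 fibroblast and mesenchyme genes 6 were higher in ED (Col1a1, Col1a2, Col3a1, Pdgfrb, S100a4 and Vim) and Thy1 was lower, with a summed level of 32.5 to 34.5 in ES and of 417 to 531 in ED. All 3 trophoblast and all 3 endothelial markers were lower in ED, as were the endoderm genes Gata4 and Sox17, the only 2 of 4 tested. Of the 4 neural genes Map2 was higher and Pax6 lower, and of the blood genes Csf1r, the only 1 tested, was lower. These shifts in cell type markers accompany every difference between ED and ES below, and their part in it was not tested.

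**Figure D1:**
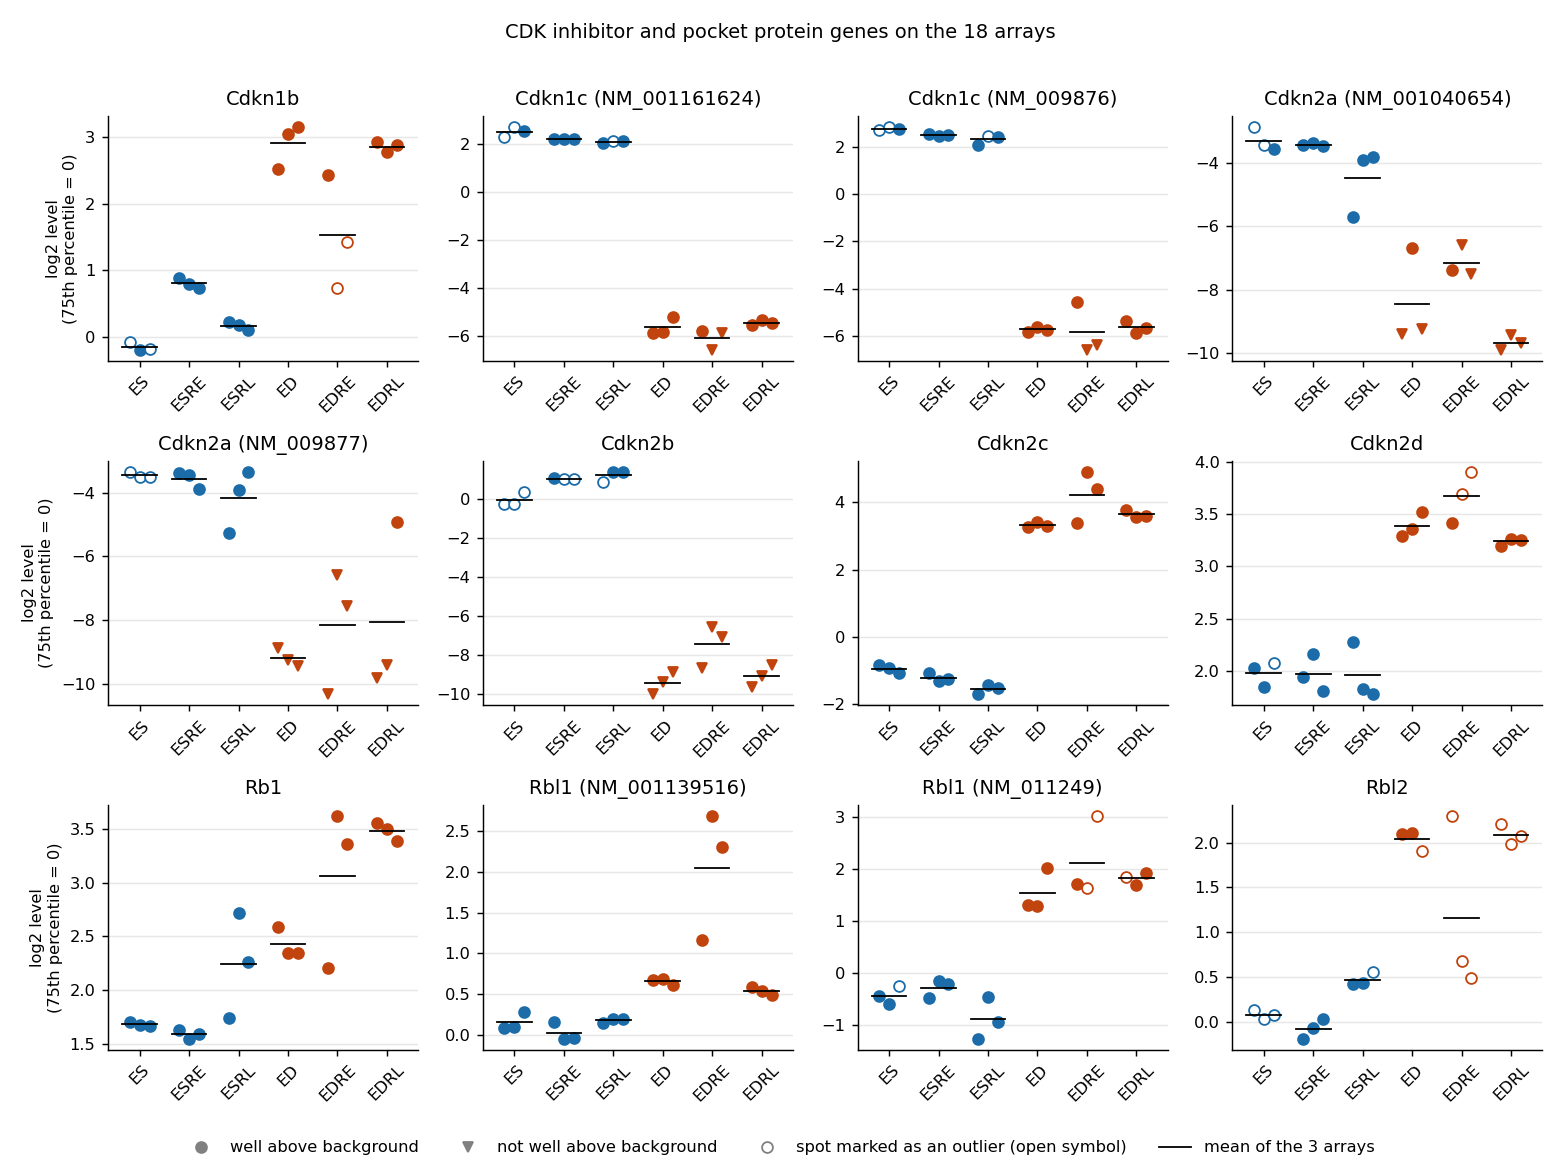
Log2 level of the 12 probes (vertical axis, 0 is the 75th percentile of the array) on the 3 arrays of each of the 6 groups (horizontal axis), with ES groups in blue, ED groups in red and a line at the mean of 3 arrays. In the unirradiated groups, Cdkn1c, both Cdkn2a probes and Cdkn2b sit lower on every ED array than on any ES array. Cdkn1b, Cdkn2c, Cdkn2d, Rbl1 and Rbl2 sit higher in unirradiated ED than in unirradiated ES.

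Between unirradiated ED and ES cells the inhibitors went in opposite directions. Cdkn1b, Cdkn2c, Cdkn2d and Rbl1 were higher in ED, and Cdkn1c and Cdkn2a were lower. These were 4 genes higher and 2 lower of the 7 that could be tested, at a Benjamini-Hochberg adjusted p under 0.05 in limma and a log2 change over 1. Over all genes tested, 14.9% were higher and 26.7% lower by the same rule. The other 2 genes, Cdkn2b and Rbl2, had no usable spot in ES, because all 3 of their ES spots were marked as outliers by the scanner software. With outlier spots kept, all 9 genes were tested, 5 were higher and 3 lower (15% and 26.4% of all genes), Rbl2 joining the former and Cdkn2b the latter. Fitting the scan time as a random block left 3 of the 7 genes higher and 1 lower. Without ES replicate 3 the 2 lower genes, Cdkn1c and Cdkn2a, could not be tested, since their only usable ES spots were on that array, and the 4 higher genes passed. Each sample is a bulk of many cells, so fewer cells that hold a transcript and less transcript per cell cannot be told apart.

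Cdkn1b encodes p27, a Cip/Kip inhibitor. Its level was -0.09, -0.20 and -0.19 on the 3 ES arrays (the first and the last marked as outliers) and 2.52, 3.04 and 3.15 on the ED arrays, so that the groups lay far apart. The log2 change was 3.1 (SE 0.25), an 8.58-fold rise, with an adjusted p of 1.38e-06 in limma. It kept this call with the scan time as a random block, at 3.18 and an adjusted p of 0.00124.

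Cdkn1c encodes p57, the other Cip/Kip protein of the set, and is an imprinted gene known for growth restraint in the embryo. The probe of NM_009876 read 2.75, 2.84 and 2.76 in ES (the first pair marked as outliers) and -5.82, -5.61 and -5.74 in ED. The probe of NM_001161624 read 2.29, 2.71 and 2.56 in ES, the first pair again marked as outliers, and -5.90, -5.87 and -5.21 in ED. Both changes therefore rest on 1 usable ES spot. Both probes were well above background on all 6 arrays, and both showed a drop of the same order. The changes were -8.49 (SE 0.59, adjusted p = 1.47e-07 in limma) and -8.22 (SE 0.33, adjusted p = 9.67e-10), which are 358-fold and 297-fold. Cdkn1c was thus bright in stem cells and dim, but still measured, in differentiated cells.

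The genes beside Cdkn1c were looked up after its values were seen, in the order that RefSeq gives on chromosome 7. Phlda2, which lies in the same imprinted domain and restrains growth of the placenta, fell by 6.70 (adjusted p = 1.41e-11 in limma) between ES and ED. Slc22a18, a transporter gene of that domain, fell by 3.54 (adjusted p = 3.39e-09). Kcnq1, a potassium channel gene, was well above background on all 3 ES arrays and on 0 of 3 ED arrays. Farther out, Nap1l4, a histone chaperone gene, had a difference of -0.68 (adjusted p = 0.00271), below the limit on size, and Tssc4 differed by 0.15 (adjusted p = 0.539). Kcnq1ot1, the noncoding transcript of the domain, was well above background on 0 arrays of either group.

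Cdkn2a and Cdkn2b lie side by side and encode p16 and Arf on the one hand and p15 on the other. Cdkn2a has 2 starts, a distal start whose transcript carries Arf and a proximal start whose transcript carries p16, and the accession of 1 probe (NM_009877) is that of the Arf transcript while the other (NM_001040654) is that of the p16 transcript. The files give no probe sequence, so whether a probe reads 1 transcript or both cannot be told here. The stretch of 250 bases before each start is shown for the genes of this locus, which fell together, and for Rbl1. Rbl1 rose, and its window holds an E2F motif. The windows of Cdkn1b, Cdkn2c, Cdkn2d and Rbl2, which rose as well, hold none and are not shown. The sequences are from RefSeq on GRCm38.p6, on the minus strand, at chr4:89294620-89294869 for the distal start of Cdkn2a, chr4:89282193-89282442 for its proximal start, chr4:89311033-89311282 for Cdkn2b and chr2:157204535-157204784 for Rbl1. Capitals mark an E2F motif, searched on both strands as TTTCCCGC, TTTCGCGC, TTTGCCGC or TTTGGCGC.
Cdkn2a, distal start: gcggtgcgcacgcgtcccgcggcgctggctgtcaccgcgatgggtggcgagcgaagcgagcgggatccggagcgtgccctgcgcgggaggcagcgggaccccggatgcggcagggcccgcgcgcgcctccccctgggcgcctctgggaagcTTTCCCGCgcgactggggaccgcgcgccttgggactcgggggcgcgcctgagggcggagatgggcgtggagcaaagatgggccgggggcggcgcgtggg
Cdkn2a, proximal start: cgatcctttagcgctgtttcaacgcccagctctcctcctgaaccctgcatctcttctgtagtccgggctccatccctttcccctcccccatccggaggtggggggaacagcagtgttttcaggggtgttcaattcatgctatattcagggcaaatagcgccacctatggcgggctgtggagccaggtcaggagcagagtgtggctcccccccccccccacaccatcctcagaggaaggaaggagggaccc
Cdkn2b: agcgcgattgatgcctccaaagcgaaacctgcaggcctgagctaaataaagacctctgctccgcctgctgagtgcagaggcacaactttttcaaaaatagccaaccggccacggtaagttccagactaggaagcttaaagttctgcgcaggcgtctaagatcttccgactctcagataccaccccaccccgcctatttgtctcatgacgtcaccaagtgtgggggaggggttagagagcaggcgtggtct
Rbl1: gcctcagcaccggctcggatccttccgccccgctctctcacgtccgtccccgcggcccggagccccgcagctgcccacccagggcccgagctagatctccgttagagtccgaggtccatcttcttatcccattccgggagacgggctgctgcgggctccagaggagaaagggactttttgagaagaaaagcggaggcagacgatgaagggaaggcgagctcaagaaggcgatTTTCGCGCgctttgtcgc

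An E2F motif stood 99 bases before the distal start of Cdkn2a and 18 bases before the start of Rbl1. Of 32851 promoter windows of this length in the RefSeq table, 611 (1.86%) hold such a motif, and among the 9 windows of the 7 genes of the set that had an entry, 2 did. The windows of the proximal Cdkn2a start and of Cdkn2b held none, which says only that these letters are not in them. The distal Cdkn2a window had 40 CpG pairs and 78.4% G or C, the proximal one 7 and 60%, and that of Cdkn2b 12 and 53.6%, against a median of 6 pairs over all windows. GC boxes (GGGCGG) and CHR elements (TTTGAA) were searched as well and are not marked. Of all windows, 32.7% hold the former and 16.0% the latter. Among the windows shown, the distal Cdkn2a one held 2 GC boxes, that of Rbl1 1, and that of Cdkn2b 1 CHR element. A match is a description of the sequence and not a bound site.

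Cdkn2b was bright in stem cells and not measurable in differentiated cells. It read -0.29, -0.27 and 0.31 on the ES arrays, all 3 spots being marked as outliers, and was not well above background on any of the 9 arrays of ED, EDRE and EDRL. Against the lowest signals that counted as well above background, its mean of -0.08 in ES exceeded ED, where the measured mean was -9.43, by at least 169.6-fold. With outlier spots kept, the adjusted p of this difference was 7.89e-11 in limma, and 7.53e-06 with the scan time as a random block. The corresponding bounds after IR were at least 157-fold at 15 min and at least 408-fold at 4 h, each irradiated ES group being set against the irradiated ED group of its time.

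Cdkn2a was measured in stem cells and fell to the background or close to it in differentiated cells. The probe of the p16 transcript read -2.88, -3.45 and -3.56 in ES, the first pair marked as outliers, and was well above background in ED only on replicate 2, at -6.67, against -9.39 and -9.25 on the others. The change was -4.88 (SE 0.92, adjusted p = 5.94e-04 in limma), resting on 1 usable ES spot and, in ED, on 1 array well above background and 2 that were not, so that its size is uncertain, and it was -5.14 with outlier spots kept. The probe of the Arf transcript, with all 3 ES spots marked as outliers, read -3.34, -3.52 and -3.51 in ES and was not well above background on any ED array, so that ES was at least 16.4-fold higher (adjusted p = 2.97e-04 in limma with outlier spots kept). With the scan time as a random block the adjusted p rose to 0.0703 for the p16 transcript and, with outlier spots kept, to 0.196 for the Arf transcript, and after normexp background correction the p16 transcript's change was -2.40 (adjusted p = 0.123).

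The genes on both sides of this pair on chromosome 4 moved the other way, again looked up after the values were seen. Mtap, an enzyme of methionine salvage whose gene is next to Cdkn2a, rose by 2.56 (adjusted p = 4.41e-08 in limma) from ES to ED. Dmrta1, next to Cdkn2b, rose by 5.47 (adjusted p = 5.63e-11). Both were well above background on all 6 arrays, while Cdkn2b was above it in ES alone. The next genes beyond Dmrta1, Zfp352 and Elavl2, fell by 2.27 and 3.12.

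**Figure D2:**
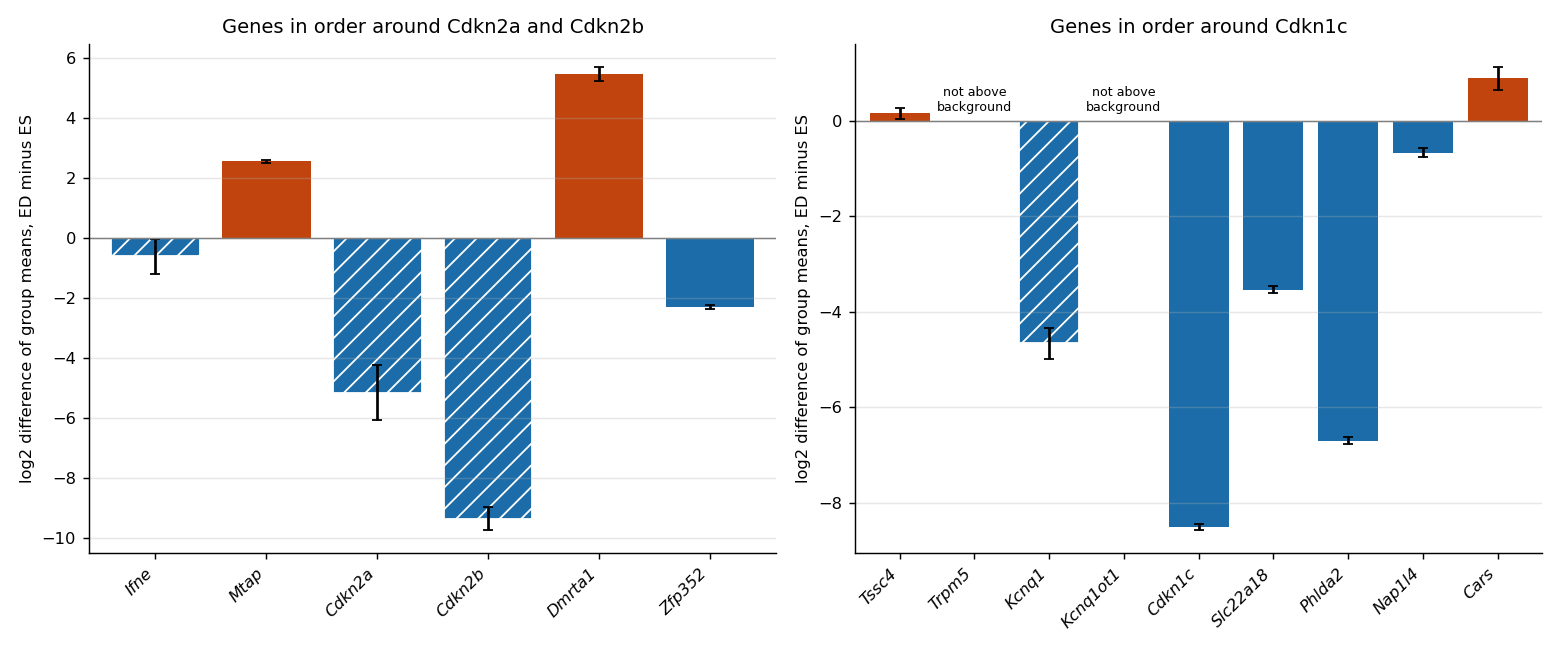
Log2 difference of group means between ED and ES (vertical axis, outlier spots kept, bars with the standard error of the difference from the 3 arrays of each group) for genes in RefSeq order around Cdkn2a and Cdkn2b (left) and around Cdkn1c (right). Hatched bars are genes not well above background on every array of a group, for which the measured difference is drawn, and Mtap and Dmrta1 rise on either side of the pair that falls.

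The remaining Ink4 genes rose. Cdkn2c encodes p18, an inhibitor of CDK4 and CDK6. Its level was -0.82, -0.93 and -1.07 in ES and 3.28, 3.41 and 3.29 in ED, with no outlier spot among them. The change of 4.26 (SE 0.27, 19.2-fold, adjusted p = 4.06e-09 in limma) was the largest rise among the 12 probes. Cdkn2d encodes p19, the Ink4 protein that shares its name with mouse Arf but not its gene. It read 2.03, 1.84 and 2.07 in ES and 3.29, 3.35 and 3.52 in ED, a change of 1.45 (SE 0.19, 2.73-fold, adjusted p = 4.78e-05), and under normexp background correction 0.84, below the limit of 1. Within the Ink4 family, then, the pair at the Cdkn2a locus was lower and the other two genes were higher in ED, and the directions of Cdkn2a, Cdkn2c and Cdkn2d were the same under the scalings tried, while Cdkn2b was fitted only with outlier spots kept, under 2 scalings, and in the matrix of the authors, and was lower in each.

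The pocket proteins were higher in ED or close to their level in ES. Rb1 encodes the retinoblastoma protein itself. It read 1.71, 1.67 and 1.67 in ES and 2.59, 2.34 and 2.34 in ED, so that the groups did not overlap, but the change of 0.74 (95% interval 0.10 to 1.38, adjusted p = 0.0493 in limma) was below the limit on size. Scaled to the array median it was 1.39 with an adjusted p of 1.10e-04, which passed. Over 34 alternatives the change of Rb1 ran from 0.35 to 1.39, and it passed in 3 of them. Rbl2 encodes p130, the pocket protein known for resting cells. With outlier spots kept, its level was 0.13, 0.03 and 0.07 in ES and 2.09, 2.11 and 1.91 in ED, a change of 1.96 (SE 0.33, 3.89-fold, adjusted p = 1.27e-04), and it passed with the scan time as a random block as well (adjusted p = 0.0168).

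Rbl1 encodes p107, which is most abundant in cycling cells, and its 2 probes differed. The probe of NM_011249 read -0.45, -0.60 and -0.26 in ES and 1.30, 1.28 and 2.01 in ED, a change of 2.06 (SE 0.28, 4.17-fold, adjusted p = 1.06e-04 in limma). The probe of NM_001139516 read 0.09, 0.10 and 0.28 in ES and 0.67, 0.68 and 0.61 in ED, a change of 0.50 (95% interval -0.07 to 1.07, adjusted p = 0.136). The count of Rbl1 as higher therefore rests on 1 of its probes. With the scan time as a random block that probe had an adjusted p of 0.0931, and with scaling to the median the other probe passed too, at 1.15.

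**Figure D3:**
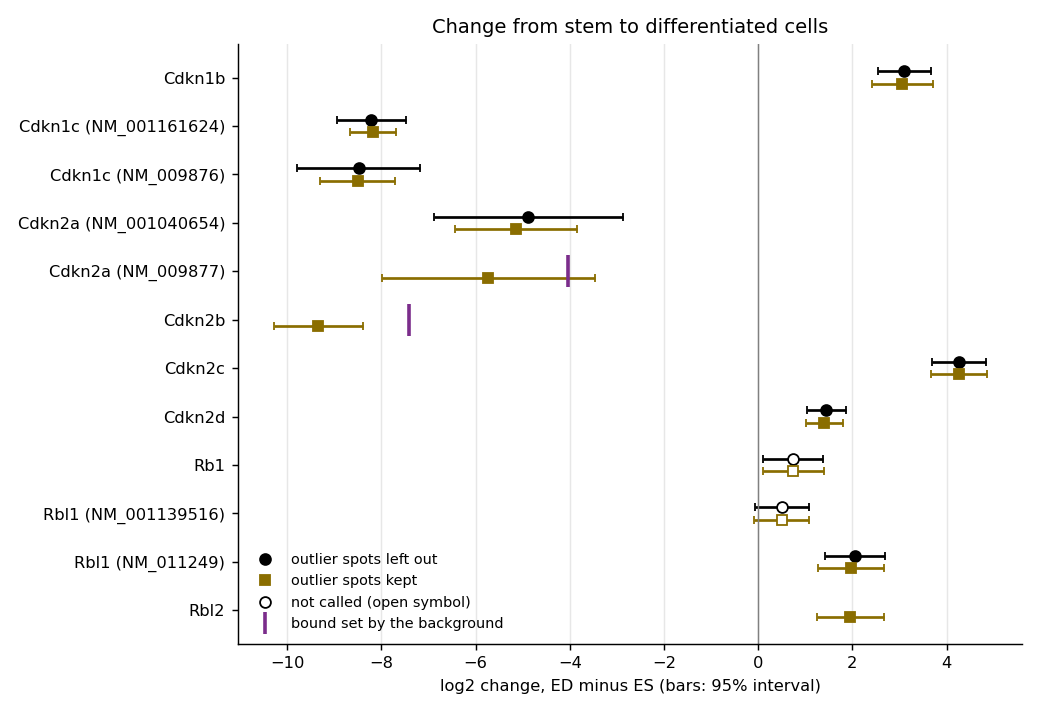
Log2 change between ED and ES with its 95% interval (horizontal axis) for each probe, with outlier spots left out (black) or kept (brown). Filled symbols are called, open symbols are not, and the purple marks give the bound that the background sets for Cdkn2b and the Arf transcript of Cdkn2a.

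In irradiated stem cells none of the 7 genes tested passed in limma at either time. At 15 min the calls over all genes came to 0.29% higher and 0.173% lower, and 1 of the 7 genes had an unadjusted p under 0.05. At 4 h they came to 0.691% higher and 6.9% lower, and again 1 of the 7 genes had an unadjusted p under 0.05. Both comparisons share the ES arrays.

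At 15 min the gene with the low p was Cdkn1b. It read 0.88, 0.80 and 0.72 on the ESRE arrays, all above the ES arrays, and 0.22, 0.17 and 0.10 on the ESRL arrays. The change in ESRE was 1.00 (SE 0.25, 95% interval 0.44 to 1.56) with an adjusted p of 0.147 in limma, and 0.36 in ESRL (adjusted p = 0.428). It rested on 1 usable ES spot, and with outlier spots kept it was 0.96 (adjusted p = 0.271). Cdkn2b had a difference of similar size at both times. Its level, with outlier spots kept, was 1.04, 1.01 and 0.99 in ESRE and 0.84, 1.33 and 1.37 in ESRL, each above the highest ES array. The change was 1.10 (SE 0.44, adjusted p = 0.465) at 15 min and 1.26 (SE 0.44, adjusted p = 0.101) at 4 h, and the latter passed with outlier spots kept and scaling to the median, at 1.58 (adjusted p = 0.0330). With outlier spots kept and the scan time as a random block it did not pass, at 1.24 (95% interval -0.84 to 3.33).

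At 4 h the gene with the low p was Cdkn2c, at -1.69, -1.41 and -1.51 in ESRL, below all ES arrays. The change was -0.60 (SE 0.27, 95% interval -1.18 to -0.02, adjusted p = 0.184 in limma). Rb1 read 1.74, 2.72 and 2.27 in ESRL, a change of 0.56 (95% interval -0.08 to 1.19, adjusted p = 0.268), and replicate 1, the array with the lowest 75th percentile of the group, was the one close to ES. The p16 transcript of Cdkn2a read -5.70, -3.92 and -3.80, with the same replicate lowest, and its interval from -2.91 to 1.08 leaves room for a large change. Cdkn1c, Cdkn2d and Rbl1 had changes between -0.48 and 0.24 in the irradiated stem cell groups, with adjusted p from 0.459 to 0.998, and the widest of their intervals, that of Cdkn1c (NM_009876) in ESRL, ran from -1.86 to 0.89.

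In irradiated differentiated cells 6 of the 9 genes could be tested, since Cdkn2a and Cdkn2b were not well above background on all arrays of any ED group and Rbl2 had no usable spot in EDRE or EDRL. At 15 min Rbl1 was higher and 0 genes were lower, against 2.23% and 2.97% of all genes, and 3 of the 6 genes had an unadjusted p under 0.05. At 4 h 0 of the 6 genes passed, against 1.4% higher and 0.254% lower of all genes, and 1 had an unadjusted p under 0.05. Both comparisons share the ED arrays.

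The call of Rbl1 at 15 min came from the probe of NM_001139516. It read 1.17 on EDRE replicate 1 and 2.68 and 2.30 on replicates 2 and 3, all above the ED arrays, and 0.59, 0.54 and 0.49 in EDRL. The change was 1.39 (SE 0.26, adjusted p = 0.0117 in limma). The other probe read 1.72, 1.63 and 3.02 in EDRE, the last pair marked as outliers. Its difference from ED of 0.19 (adjusted p = 0.811) thus rested on EDRE replicate 1 alone. With outlier spots kept it was 0.59 (adjusted p = 0.208 in limma). The 2 higher values of the first probe were on the arrays with the low 75th percentile and the many outlier spots. Without EDRE replicate 3 the change was 1.27 (adjusted p = 0.0525), and with replicate 1 as the only EDRE array it was 0.51 (adjusted p = 0.107). The call was also lost with the scan time as a random block, at 1.17 (adjusted p = 1.00).

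The same pair of arrays stood apart for most of the genes. Cdkn2c read 3.39 on EDRE replicate 1, inside the range of ED, and 4.91 and 4.39 on replicates 2 and 3. Its change was 0.91 (SE 0.27, adjusted p = 0.0524 in limma), and 0.07 with replicate 1 alone. Rb1 read 2.20 on replicate 1, and 3.62 and 3.35 on the others, a change of 0.63 (adjusted p = 0.190) that became -0.22 with replicate 1 alone. Cdkn1b and Rbl2 went the opposite way on these arrays. Cdkn1b read 2.43 on replicate 1, and 0.73 and 1.42 on the others, both marked as outliers, and Rbl2 read 2.30, 0.68 and 0.49, all marked as outliers. With outlier spots kept, 2 of 7 genes passed at 15 min, Rbl1 higher and Cdkn1b lower (-1.38, adjusted p = 0.0216, and 0.933 with the scan time as a random block), where 2.94% of all genes were higher and 4.53% lower, and Rbl2 had a difference of -0.88 (adjusted p = 0.0746).

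At 4 h the ED cells gave tighter values. Rb1 read 3.56, 3.50 and 3.38 in EDRL, all above the ED arrays, and the change was 1.05 (SE 0.29, 95% interval 0.42 to 1.68, 2.08-fold, adjusted p = 0.0829 in limma). It passed when scaled to the array median (1.20, adjusted p = 0.00853) and when only the ED and EDRL arrays were fitted (adjusted p = 0.00494), and did not with the scan time as a random block (adjusted p = 0.295). Leaving out EDRE replicate 1, EDRE replicate 2 or ESRL replicate 1, which enter only through the shared spread, also brought its adjusted p under 0.05, to 0.00550, 0.0434 and 0.0455. Cdkn1b read 2.92, 2.77 and 2.87 and Cdkn2d at 3.20, 3.26 and 3.26, with changes of -0.05 (95% interval -0.43 to 0.34) and -0.15 (95% interval -0.51 to 0.22). Cdkn2c had a difference of 0.32 (adjusted p = 0.673), and Rbl2, at 2.21, 1.99 and 2.07 on spots marked as outliers, of 0.05 (adjusted p = 0.980).

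**Figure D4:**
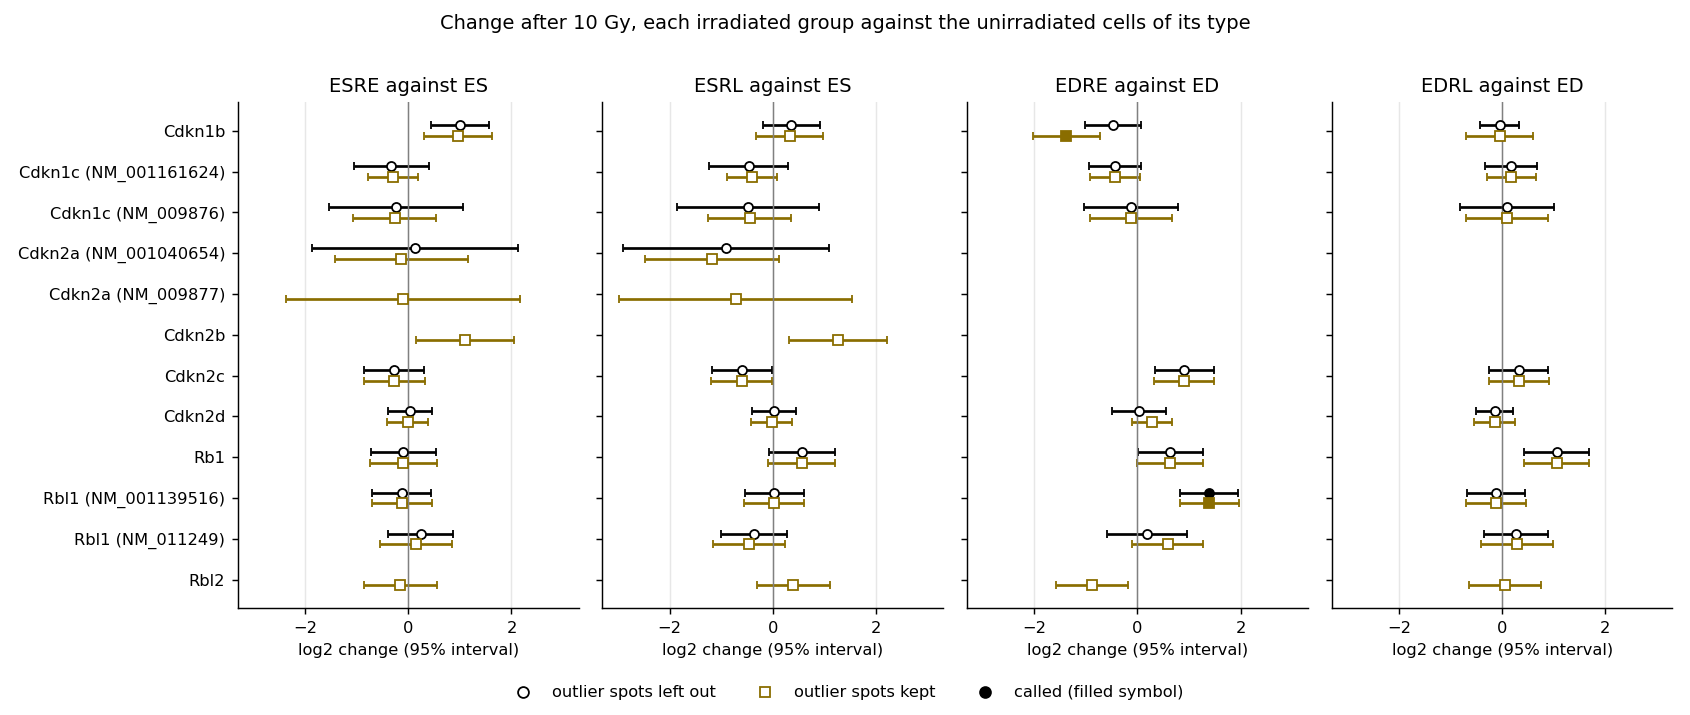
Log2 change with its 95% interval (horizontal axis) for each probe in the 4 comparisons of an irradiated group with the unirradiated cells of its type, with outlier spots left out (black) or kept (brown). Filled symbols are called, and the Rbl1 probe of NM_001139516 in EDRE is the only one filled in both settings.

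Whether a change after IR differed between the cell types was tested as the interaction. At 15 min 0 of 7 genes passed in limma, against 1.24% of all genes with a more positive change in ED and 0.85% with a more positive change in ES, and 3 had an unadjusted p under 0.05. The largest differences were those of Rbl1 (NM_001139516), at 1.52 (SE 0.38, adjusted p = 0.0558), and of Cdkn1b, at -1.47 (SE 0.36, adjusted p = 0.0702). With replicate 1 as the only EDRE array the Rbl1 value was 0.64. The Cdkn1b value rested on 1 usable spot in ES and 1 in EDRE, where the spots of replicates 2 and 3 were marked as outliers. With outlier spots kept Cdkn1b passed, at -2.34 (adjusted p = 0.0153), as 1 of 9 genes, against 1.36% of all genes more positive in ED and 1.21% more positive in ES, and it did not pass once the scan time was a random block (adjusted p = 1.00). At 4 h 0 of 7 genes passed, against 0.911% and 0.246% of all genes, and the 1 gene with an unadjusted p under 0.05 was Cdkn2c, at 0.92 (95% interval 0.10 to 1.74, adjusted p = 0.272). Rb1 gave 0.50 (95% interval -0.41 to 1.40). The changes of Rb1 in ESRL and in EDRL were thus not shown to differ.

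Other genes of the same axis were described from a list of 59, of which 58 were on the array. In ED against ES 51 were tested, 6 were higher and 10 lower, against 14.9% and 26.7% of all genes, neither share of the list being above that of all genes. Their median change was 0.06, and that of all genes -0.18. Among the cyclins and CDKs that the inhibitors act on, 3 of 8 were higher and 2 lower. Ccnd2, a D-type cyclin, rose by 3.98 (adjusted p = 1.00e-09 in limma) and Ccne1, cyclin E1, fell by 3.27 (adjusted p = 8.60e-08), while Ccnd1 and, on 1 of its 2 probes, Ccne2 were also higher and Ccnd3 was lower. None of the 8 E2F and DP factors tested passed, and of 10 E2F target genes only Mcm2, a subunit of the replicative helicase, did (-1.08, adjusted p = 3.37e-05).

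Of the 6 partners of the pocket proteins tested, in the MuvB and Myb complexes, 1 rose and 1 fell. Foxm1, a factor of G2 and mitosis genes, rose by 2.22 (adjusted p = 2.13e-05 in limma), and Mybl2, a Myb factor of cycling cells, fell by 3.73 (adjusted p = 1.57e-08). Of 9 genes listed as regulators of the Cdkn2a and Cdkn2b locus 2 were higher and 4 lower. Bmi1, a Polycomb protein that represses the locus, rose by 3.61 (adjusted p = 2.08e-08), as did Ets1, an activator of p16. Tbx3, a T-box repressor of Arf, fell by 3.05 (adjusted p = 1.64e-08), and Cbx7, Tbx2 and Ets2 were lower as well. Of the Arf pathway Mdm2 was lower and Npm1 did not pass. The 2 probes of Trp53, which encodes p53, went apart, the brighter at 0.48 (adjusted p = 0.694) and the other at -1.29 (adjusted p = 0.0164), so that its count as lower rests on the dimmer probe. Of 6 genes of p27 turnover and transcription 0 passed. Cdkn1a, which encodes the remaining Cip/Kip protein p21, had changes of 0.58 and 0.80 on its 2 probes (adjusted p = 0.123 and 0.0383), neither over the limit on size.

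**Figure D5:**
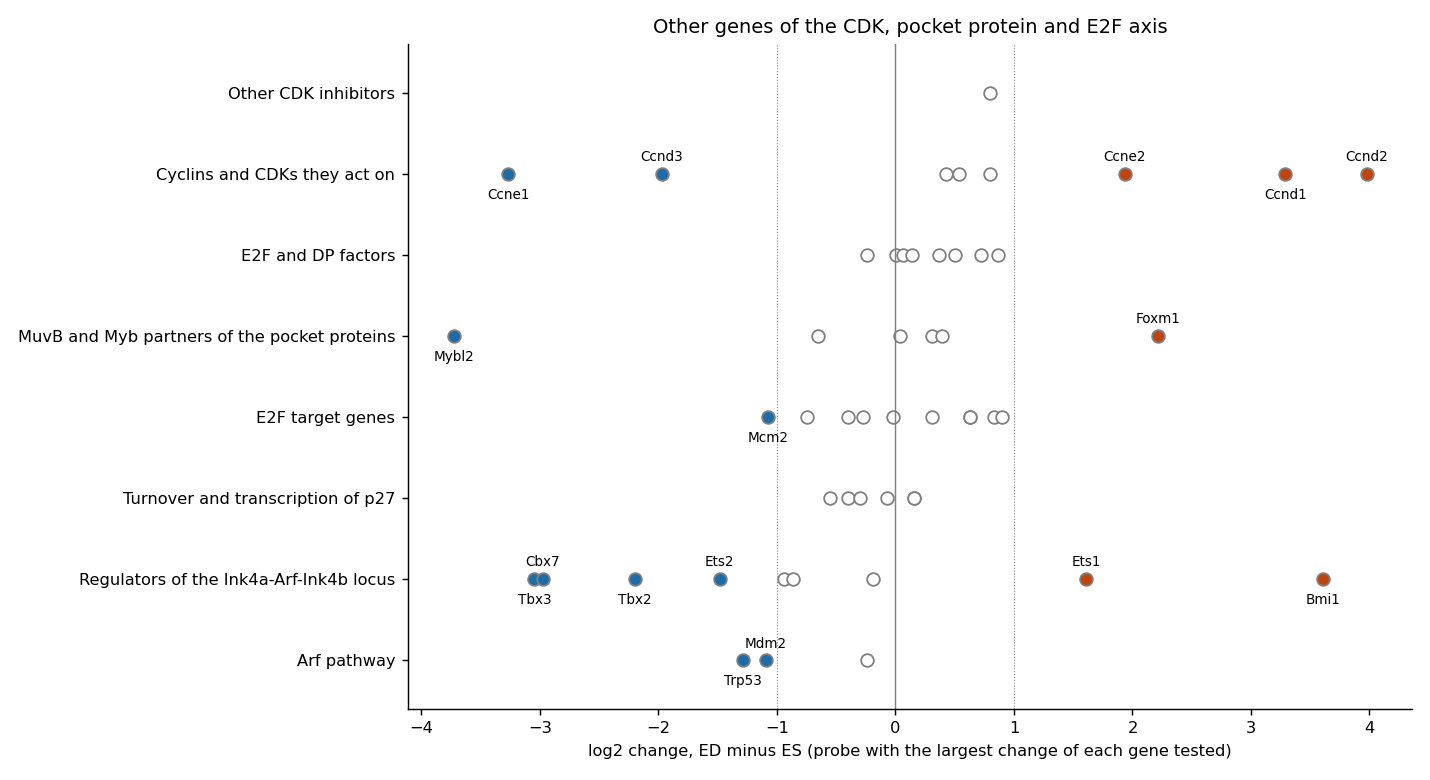
Log2 change between ED and ES (horizontal axis) of the listed genes that were tested, by role (vertical axis), with the probe of the largest change for each gene. Filled and named genes are called, red higher and blue lower in ED, and the dotted lines mark a change of 1 in size.

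After IR few genes of this list moved. In ESRE 0 of 50 passed in limma, where 0.29% of all genes were higher and 0.173% lower. In ESRL 1 of 51 did, against 0.691% and 6.9%, and this was Lin37, a MuvB subunit, which fell by 1.33 (adjusted p = 0.0263). In EDRE 3 of 52 were higher, against 2.23% of all genes, Ccne1 by 1.22 (adjusted p = 0.0205), Cdt1, a licensing factor of replication origins, by 1.08 (adjusted p = 0.0421), and Mcm6, and 0 of them passed without EDRE replicates 2 and 3. In EDRL 1 of 53 was higher, against 1.4% of all genes, Mdm2, a target and inhibitor of p53, which rose by 1.39 (SE 0.14, adjusted p = 1.09e-04). In ESRL Mdm2 was higher by 0.87 (SE 0.14, adjusted p = 0.00387 in limma), below the limit on size. Foxo1, listed under p27 transcription, was higher there by 0.76 (adjusted p = 0.0262), also below that limit. With the scan time as a random block 0 genes of the list passed in ESRL, EDRE or EDRL. Cdkn1a, another target of p53, had differences of 0.69 and 0.57 on its 2 probes in EDRL (adjusted p = 0.303 and 0.428) and of -0.82 and -0.73 in ESRL (adjusted p = 0.106 and 0.150). The median change of the list lay between -0.08 and 0.16 in the 4 comparisons, and that of all genes between -0.18 and 0.03.

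The genes most like each of the 9 were taken by the correlation of log2 levels over 15 to 18 arrays, among 16403 probes. For Cdkn1b, Cdkn2b, Rbl1 and Rbl2, with fewer than 15 usable spots, spots marked as outliers were kept. For the other genes they were left out. The arrays fall into 2 cell types, so the value mostly ranks how alike the difference between ES and ED is, and it is given as a description. Cdkn1c ran closest to Fbxo15, a gene known from stem cells, and to Igf2, an imprinted growth factor gene (r = 0.998 and 0.997), and Cdkn2b to Calca and Fbp1 (0.998 and 0.997). Cdkn2c ran closest to Thbs2, a matrix glycoprotein, and Cxcl1, a chemokine (0.999 and 0.998), Cdkn2d to Saa3 and Pdlim4 (0.994 and 0.992), and Rbl2 to Ltbp2 and Fosl1 (0.995 and 0.995). For Cdkn1b they were Xlr and Klf13 (0.991 and 0.986), for Rbl1 Ids and Frk (0.990 and 0.990), for Rb1 Map3k20 and Synm (0.973 and 0.953), and for Cdkn2a Ahctf1 and Pramel3 (0.967 and 0.966). Rb1 and Cdkn2a had the lowest values.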

How the data were processed

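RNA of each of 18 samples was labeled with Cy3 and hybridized to 1 Agilent array, with 3 arrays in each of 6 groups taken from the sample labels. The intensity values that the authors deposited are background-subtracted processed signals of Agilent Feature Extraction (version 10.7.3.1 per the file headers, 9.1 per the submitters' processing notes), with no normalization between arrays. A deposited series table holds log2 values of 30133 of the probes, each about the log2 signal minus the median of its array as tested on the files, which served as an alternative. Marks for outlier spots and for signals well above background are as the scanner software set them.

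Control spots were left out, which left 37831 spots of 37246 probes, and 22216 probes were named from RefSeq by accession. Spots marked as outliers were left out, and log2 signals were set relative to the 75th percentile of each array. A probe was tested where every array of 1 or more of the groups compared had it well above background. All 18 arrays entered 1 linear model with a mean for each of the 6 groups (limma 3.58.1, R 4.3.3), and p-values were adjusted by Benjamini-Hochberg over all probes tested. A gene was called where a probe passed an adjusted p of 0.05 with a log2 difference above 1 in size. The procedure was tested on simulated data with independent values, which says nothing on p-values under the correlation within scan times. Where a group was not well above background on any array, folds are bounds against the lowest signal that was, or the probe's own where higher. The number of arrays limits the precision.

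The genes, the pathway list and the marker lists were chosen with earlier results of these data known. Named were all 9 genes and, of the pathway list, the called genes with the largest rise and the largest fall for each role and comparison, and Cdkn1a. Mdm2 and Foxo1 in ESRL were added with their values known. Other called genes of the list are named without values, and the neighbors were chosen with their values known. In all, 16 other settings were tried, 1 of which left out each array in turn, and 3 more were chosen after seeing the data. The samples were not treated as paired by replicate number. The correlation of deviations between arrays of the same number ranged from -0.43 to 0.30, which cannot show whether such samples shared a culture. Promoter windows are from a RefSeq table on GRCm38.p6, which held no entry for Cdkn1c or Rb1. The paper's other experiments are not analysed here.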

Additional observations from a re-analysis of the deposited data

How the results depend on the processing

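Of 1975 changes of single probes recomputed under the alternatives, 1806 kept their direction and their side of the threshold, 49 came to pass it, 11 no longer passed it, 106 changed sign without passing in either setting (Rb1 in EDRE among them) and 3 changed sign and passed, all of them Cdkn1c in EDRE. That change became 2.44 (NM_009876) and 2.28 (NM_001161624) after normexp background correction, and 1.17 (NM_009876) without EDRE replicates 2 and 3. In EDRE these probes were well above background on replicate 1 alone, at -4.55 (NM_009876) and -5.81 (NM_001161624). On replicate 2 both read -6.59, as did both Cdkn2a probes and Cdkn2b. The size of the Cdkn1c change in EDRE is therefore uncertain, and the cause of its change in sign was not tested. In ED against ES the count of 6 genes was 3 with the methods' t-test, adjusted or not, which needs 2 usable spots a group, 4 with the scan time as a random block or normexp, and 9 with the authors' matrix, and 4 (without ES replicate 3, which leaves 5 genes tested) to 6 with 1 array left out. In ESRL it was 1 in place of 0 with the authors' matrix, and with outlier spots kept and scaling to the median.

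In EDRE the count of 1 was 4 with normexp, 3 with the authors' matrix and with outlier spots kept and scaling to the median, 2 with scaling to the median, quantile normalization, outlier spots kept or array weights, and 0 with the scan time as a random block (outlier spots left out or kept), with the groups compared alone, with the brightest probe alone or with the adjusted t-test. Leaving out 1 array gave 0 (without EDRE replicate 3) to 3 (without EDRE replicate 1). In EDRL it was 1 in place of 0, the gene being Rb1 where named above, with scaling to the median (outlier spots left out or kept), the authors' matrix, array weights, the groups compared alone, EDRE replicates 2 and 3 left out, and both t-tests, and 0 to 1 with 1 array left out. The interaction at 15 min gave 4 with normexp, 3 with array weights, 2 with the filter on all groups, the authors' matrix or outlier spots kept and scaling to the median, 1 with scaling to the median or outlier spots kept, and 0 to 3 with 1 array left out (1 without ESRL replicate 1 or ED replicate 1, 3 without EDRE replicate 1).

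Of the pathway list, the count of 16 in ED against ES was 26 with no limit on the change. In ESRE it was 1 in place of 0 with array weights, the groups compared alone and EDRE replicates 2 and 3 left out, and 0 to 1 with 1 array left out (1 without EDRE replicate 1 or 3). In ESRL the count of 1 was 4 with the authors' matrix or outlier spots kept and scaling to the median, 3 with scaling to the median, array weights or no limit on the change, 2 with EDRE replicates 2 and 3 left out, 0 with quantile normalization, normexp, the scan time as a random block (outlier spots left out or kept), the groups compared alone or the adjusted t-test, and 0 to 4 with 1 array left out (4 without ESRL replicate 2, 0 without ESRL replicate 1 or 3 or any ES replicate). In EDRE the count of 3 was 16 with normexp, 12 with quantile normalization, 6 with the authors' matrix or outlier spots kept and scaling to the median, 5 with array weights, 0 with the scan time as a random block (outlier spots left out or kept), the groups compared alone, EDRE replicates 2 and 3 left out or either t-test, and 0 to 9 with 1 array left out (9 without EDRE replicate 1, 0 without ED replicate 1 or 2 or EDRE replicate 2 or 3). In EDRL the count of 1 was 0 with the scan time as a random block, outlier spots left out or kept.

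With the replicate block, whose numbers are not known to pair these samples, 6 genes of the set were called in ED against ES and 1 gene of the pathway list in EDRE in place of 3.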
